A study of Mus musculus with 6 samples.

Results

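The genes described here are a list of 33 granule, surface and other genes known from mouse neutrophils, chosen by gene name. The choice was made with earlier results of these data known. The shares over all genes given beside the counts below describe the list and do not test it. Of the 33 genes, 29 were measured on a probe set annotated to 1 gene, among 18193 genes measured in all. For each gene the probe set with the highest mean over the 6 arrays was used. The list was divided by role into 4 primary granule genes (Mpo, Elane, Prtn3, Ctsg), 7 secondary granule genes (Ngp, Camp, Ltf, Chil3, Pglyrp1, Cd177, Itgb2l) and 22 genes of the mature cell. The mature-cell genes comprise 9 surface genes (Ly6g, Fpr1, Fpr2, Itgam, Trem3, Mcemp1, Bst1, Cd300lf, Pilra) and 13 cytosolic, nuclear or secreted ones (Retnlg, Stfa1, Stfa3, Stfa2l1, Slfn1, Slfn4, Padi4, Hdc, Anxa1, Gda, Asprv1, Wfdc21, Wfdc17). Ly6g, Retnlg and Fpr1 were not named by the probe annotation used here, and Stfa1 was named only on a probe set shared with Cstdc5.

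Neutrophils are short-lived granulocytes that leave the blood and enter the colon wall after injury of the mucosa. Their granules are filled in order during development in the bone marrow: primary granules in promyelocytes, with Mpo and the serine proteases, then secondary and gelatinase granules in later precursors, with Ltf, Camp and Ngp. Transcription of the primary granule genes largely ends before the cell leaves the marrow, secondary granule transcripts decline on maturation, and receptors such as Fpr2 and Itgam are used by the mature cell.

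Gene expression was measured in colon of C57BL/6 mice aged 6 to 8 weeks, taken 24 h after ethanol was injected rectally, which all 3 groups received. The groups were GPR43 KO, GPR41 KO and wild type (WT), with 2 arrays each. GPR43 (gene Ffar2) and GPR41 (gene Ffar3) are receptors for short-chain fatty acids, and neutrophils are among the cells that carry GPR43. Colon without ethanol was not analysed here, and how the knockout alleles were made, whether the deletion was restricted to a cell type and whether the KO and WT mice were littermates is not stated in the sources used here.

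Ffar2 checks the GPR43 KO labels. Its signal in GPR43 KO was 1598 for the library labelled replicate 1 but 189 for replicate 2. GPR41 KO colon had 1857 and 1933, and WT colon 1194 and 1118. The library labelled GPR43 KO replicate 1 thus stood at 1.38 times the WT mean and went against its label, while replicate 2 was at 16.4% of the WT mean. Results of the GPR43 KO group are therefore also given without that library, and no check of the GPR41 KO label was available because no probe set was named Ffar3. The median signal per array was 80.9 to 96.8, the Gapdh 3' to 5' ratio was 0.778 to 0.858, all 9 colon epithelium markers were above the limit on weak genes used below, and with 2 arrays a group the number of arrays limits the precision. Whether the arrays of a group stand for different mice is not stated in the labels, so p-values measure only the spread between these samples.

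Most of the 29 measured genes were lower in both KO groups than in WT, the primary granule genes and a pair of secondary granule genes apart. In 22 of the 29 genes (75.9%) all 4 arrays labelled KO lay below both WT arrays, against 12.8% of all genes. Both arrays of a KO group lay below both WT arrays in 23 of the 29 genes in GPR43 KO and in 23 in GPR41 KO, against 20.8% and 23.9% of all genes. The median log2 fold change was -2.27 in GPR43 KO and -2.70 in GPR41 KO against WT, where the median over all 18193 genes was 0.02 and -0.01. Fold changes are on the scale of log2(signal + 18), which draws weak signals together, and ± gives the standard error (SE) from limma. In bulk tissue, fewer cells of a type and less RNA per cell cannot be told apart.

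Changes were tested with limma over all genes, with Benjamini-Hochberg adjustment and a threshold of 0.05. The standard test kept only genes whose mean over the arrays, taken on the log scale given above, exceeded the 40th percentile over genes. Turned back into signal, that limit is about 126 units, and 13 of the 29 passed it. It is not a limit on the mean of the signals: genes with high WT but very low KO signals could fall below it. A gene near background in the KO arrays passed only through its WT level. The members nearest to that limit stood at percentiles 39.8 and 42.7. In GPR43 KO against WT, 9 of the 13 fell, 0 rose and 4 did not pass, where 2.41% of all tested genes fell and 1.55% rose. In GPR41 KO against WT, 9 of the 13 likewise fell, 0 rose and 4 did not pass, where 3.11% of all tested genes fell and 1.85% rose. Both comparisons share the WT arrays. In each, the genes that fell were Ngp, Chil3, Fpr2, Itgam, Cd300lf, Pilra, Gda, Asprv1 and Wfdc17, and those that did not pass were Pglyrp1, Cd177, Slfn4 and Anxa1. With the library labelled GPR43 KO replicate 1 left out, 11 of 15 fell in GPR43 KO, and leaving out WT replicate 2, 4 of 9 fell in either comparison.

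With weak genes kept, so that all 29 were tested, 17 fell in GPR43 KO and 18 in GPR41 KO, where 1.29% and 1.65% of all genes fell. None of the 29 rose in either comparison, where 0.66% and 0.83% of all genes rose (limma). Adjusted p-values of the 16 genes below the limit come from that test. These counts depended on single arrays. In GPR43 KO the count was 10 without the library labelled GPR43 KO replicate 1, 7 without GPR43 KO replicate 2 and 9 without WT replicate 2. In GPR41 KO it was 9 without either GPR41 KO array and 8 without WT replicate 2.

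**Figure D1:**
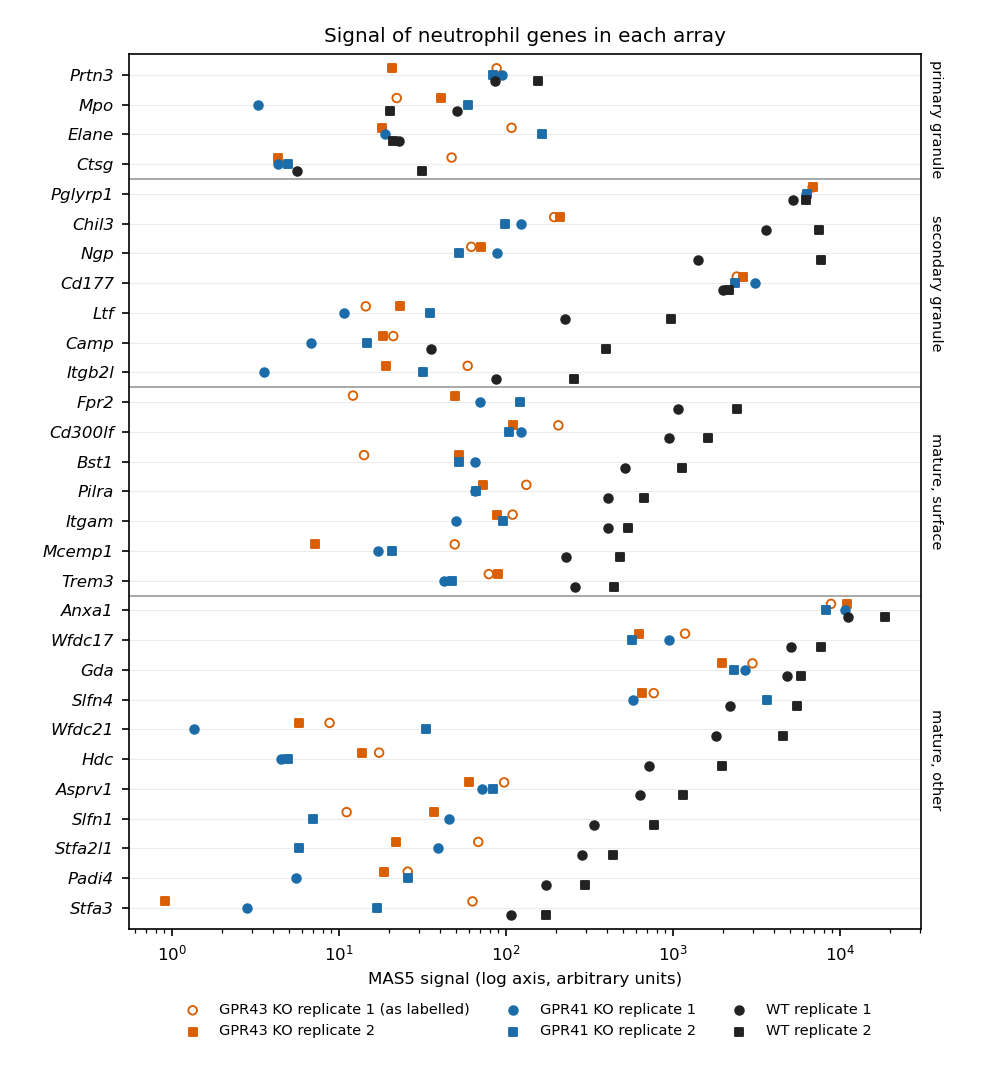
MAS5 signal (arbitrary units, log axis) of the 29 measured genes in each of the 6 arrays, grouped by role. The WT arrays (black) lie right of the KO arrays for the surface genes and most other mature-cell genes, the primary granule genes show no such order, and Pglyrp1 and Cd177 lie at about the same level in all arrays.

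The 4 primary granule genes encode myeloperoxidase, which makes hypochlorous acid (Mpo), and the serine proteases neutrophil elastase, proteinase 3 and cathepsin G (Elane, Prtn3, Ctsg). All were weak in every array. Their signals ranged from 4.28 to 108 in the GPR43 KO arrays, from 3.26 to 165 in the GPR41 KO arrays and from 5.61 to 155 in the WT arrays. Mpo had 22.2 and 41.0 in GPR43 KO and 3.26 and 59.4 in GPR41 KO, against 50.7 and 20.2 in WT. Elane had 108 and 18 in GPR43 KO and 18.8 and 165 in GPR41 KO, against 22.9 and 21.1 in WT. None of the 4 passed the test in GPR43 KO or in GPR41 KO with weak genes kept, with limma adjusted p from 0.394 to 0.977. At an unadjusted p under 0.05 the count was also 0 of 4 in each comparison, where 15% of all genes in GPR43 KO and 14.6% in GPR41 KO passed that level. Their median log2 fold change was 0.04 in GPR43 KO and -0.33 in GPR41 KO, and the SE of single genes ran from 0.52 to 0.80. The direction of 3 of the 4 genes in GPR43 KO depended on 1 array: without the library labelled GPR43 KO replicate 1 the values were 0.20 for Mpo, -0.15 for Elane and -0.61 for Ctsg. Prtn3 was then at -1.78 (limma adjusted p = 0.236).

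Secondary granule genes divided into 2 sets. Ngp, Chil3, Ltf, Camp and Itgb2l were lower in all 4 arrays labelled KO than in both WT arrays, whereas Pglyrp1 and Cd177 were not lower in any comparison. Of the 7, 3 fell in each comparison with weak genes kept, namely Ngp, Chil3 and Ltf. Of all genes, 1.29% fell in GPR43 KO and 1.65% in GPR41 KO in that test.

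The 250 bases before a transcript start, as the promoter table used here places it, are shown for the 4 secondary granule genes with the largest differences in signal and for the 2 that were not lower, because C/EBP and PU.1 factors are known to drive granule genes in developing neutrophils. Sequences are from RefSeq (GRCm38.p6), written 5' to 3' along the gene's strand. Capitals mark TTGCNNAA, a C/EBP-like motif, and GAGGAA, a PU.1-like motif, each searched on both strands, so that an opposite-strand GAGGAA reads TTCCTC; no motif overlapped another. The windows are chr9:110419558-110419807 (+) for Ngp, chr9:111019042-111019291 (+) for Ltf, chr9:109849457-109849706 (-) for Camp, chr3:106167565-106167814 (-) for Chil3, chr7:18884440-18884689 (+) for Pglyrp1 and chr7:24760312-24760561 (-) for Cd177. The transcript start used for Cd177 lies inside the gene's full extent given below, so the 3' end of its window overlaps that extent.
Ngp: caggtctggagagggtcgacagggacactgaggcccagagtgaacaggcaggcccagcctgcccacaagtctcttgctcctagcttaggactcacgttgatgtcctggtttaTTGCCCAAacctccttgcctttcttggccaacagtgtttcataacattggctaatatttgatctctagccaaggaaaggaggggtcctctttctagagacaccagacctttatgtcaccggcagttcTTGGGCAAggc
Ltf: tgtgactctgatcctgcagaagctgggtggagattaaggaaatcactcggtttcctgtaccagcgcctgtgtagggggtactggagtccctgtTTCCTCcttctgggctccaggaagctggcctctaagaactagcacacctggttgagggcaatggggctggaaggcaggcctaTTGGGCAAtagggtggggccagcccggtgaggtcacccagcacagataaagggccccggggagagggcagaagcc
Camp: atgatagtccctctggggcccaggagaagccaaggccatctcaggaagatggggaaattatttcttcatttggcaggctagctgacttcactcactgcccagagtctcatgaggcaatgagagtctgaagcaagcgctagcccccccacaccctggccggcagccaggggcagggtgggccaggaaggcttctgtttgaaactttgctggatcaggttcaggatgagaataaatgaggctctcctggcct
Chil3: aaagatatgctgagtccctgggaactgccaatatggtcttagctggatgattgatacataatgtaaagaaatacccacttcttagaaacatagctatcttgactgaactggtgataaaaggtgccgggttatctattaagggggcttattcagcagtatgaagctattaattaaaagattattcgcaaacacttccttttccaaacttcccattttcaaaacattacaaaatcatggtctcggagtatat
Pglyrp1: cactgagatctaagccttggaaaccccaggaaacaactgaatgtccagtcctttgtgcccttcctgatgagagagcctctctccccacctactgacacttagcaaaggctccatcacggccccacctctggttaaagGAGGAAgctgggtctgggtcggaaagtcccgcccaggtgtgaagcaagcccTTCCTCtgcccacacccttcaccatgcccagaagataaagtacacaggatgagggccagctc
Cd177: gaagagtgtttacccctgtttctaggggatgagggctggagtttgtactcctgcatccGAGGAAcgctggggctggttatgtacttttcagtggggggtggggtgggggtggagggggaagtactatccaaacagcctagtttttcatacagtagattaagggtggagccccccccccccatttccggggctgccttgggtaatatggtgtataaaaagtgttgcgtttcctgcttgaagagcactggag

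The Ngp window held TTGCNNAA from 138 to 131 bases and, on the opposite strand, from 11 to 4 bases before the start. In the Ltf window the same motif lay from 75 to 68 bases before the start and GAGGAA from 157 to 152, both on the opposite strand. Pglyrp1 held GAGGAA from 113 to 108 and, on the opposite strand, from 62 to 57 bases before the start, and Cd177 from 192 to 187. Neither motif's letters occurred in the Camp and Chil3 windows. A window was found for 30 of the 33 listed genes. TTGCNNAA occurred in 8 of the 30 (26.7%), against 9.56% of 32851 RefSeq windows of the same length, and GAGGAA in 19 of the 30 (63.3%), against 23.3%. Among measured genes with a window, TTGCNNAA was found in 5 of 19 that were lower in all KO arrays and in 0 of 7 others, and GAGGAA in 11 of 19 and 6 of 7. A match describes letters in a window and was not tested as a binding site.

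Ngp encodes neutrophilic granule protein, related to the cathelicidins and cystatins (chromosome 9, 110419808 to 110423012). Its signal was 62.0 and 71.1 in GPR43 KO and 88.4 and 52.3 in GPR41 KO, against 1420 and 7714 in WT. All 4 KO arrays were far below either WT array, at 1.46% (GPR43 KO) and 1.54% (GPR41 KO) of the WT mean. The log2 fold change was -5.30 ± 0.63 in GPR43 KO (limma adjusted p = 0.00336) and -5.27 ± 0.63 in GPR41 KO (limma adjusted p = 0.00256). Ngp stood at -5.23 in GPR43 KO when the library labelled replicate 1 was left out (limma adjusted p = 0.0162).

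Chil3 encodes Ym1, a chitinase-like lectin made by mouse neutrophils and also by some macrophages (chromosome 3, 106147554 to 106167564). Chil3 had 194 and 212 in GPR43 KO and 124 and 98.5 in GPR41 KO, against 3603 and 7535 in WT. The groups did not overlap, and the fold changes had the smallest adjusted p-values of the 13 genes in the standard test: -4.57 ± 0.31 in GPR43 KO (limma adjusted p = 0.000376) and -5.35 ± 0.31 in GPR41 KO (limma adjusted p = 9.87e-05). Left with replicate 2 alone, GPR43 KO gave -4.51 for Chil3 (limma adjusted p = 0.0014). A probe set that Chil3 shares with Chil4, not used in the counts, gave 90.7 and 125 in GPR43 KO and 29.5 and 70.4 in GPR41 KO, against 2275 and 5979 in WT.

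Ltf, Camp and Ngp lie within 1195 kb of each other on chromosome 9. Ltf encodes lactoferrin, which binds iron (111019292 to 111042766). Ltf had 14.5 and 23.2 in GPR43 KO and 10.8 and 34.8 in GPR41 KO, against 224 and 973 in WT. The log2 fold change of Ltf was -3.74 ± 0.65 in GPR43 KO (limma adjusted p = 0.0254) and -3.65 ± 0.65 in GPR41 KO (limma adjusted p = 0.0225). Those Ltf calls were lost on leaving out any array except WT replicate 1, with adjusted p between 0.0514 and 0.187; without the library labelled GPR43 KO replicate 1, Ltf in GPR43 KO was at -3.57 (limma adjusted p = 0.156).

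Camp encodes the precursor of the antimicrobial peptide CRAMP (109847377 to 109849456). It had 21.1 and 18.3 in GPR43 KO and 6.77 and 14.7 in GPR41 KO, against 35.6 and 399 in WT. The KO arrays were below both WT arrays, but WT replicate 1 stood near them, and Camp did not pass the test, at -1.99 ± 0.81 in GPR43 KO (limma adjusted p = 0.299) and -2.39 ± 0.81 in GPR41 KO (limma adjusted p = 0.204). Among the alternatives run, Camp passed only when WT replicate 1 was left out, at -3.47 and -3.87 (limma adjusted p = 0.0119 and 0.0063). Itgb2l encodes an integrin beta subunit close to that of Mac-1. It had 58.9 and 19.2 in GPR43 KO and 3.55 and 31.7 in GPR41 KO, against 87.0 and 255 in WT, and did not pass either (limma adjusted p = 0.262 and 0.110). The direction of Itgb2l depended on which of its 3 probe sets was the highest. With the library labelled GPR43 KO replicate 1 left out, Camp was at -2.04 and Itgb2l at -2.19 in GPR43 KO, and neither passed (limma adjusted p = 0.523 and 0.326).

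Pglyrp1 and Cd177 were the exceptions among secondary granule genes, with high signals in every array. Pglyrp1 encodes a protein that binds bacterial peptidoglycan (chromosome 7, 18884690 to 18890438). It had 6855 and 6893 in GPR43 KO and 6220 and 6311 in GPR41 KO, against 5264 and 6239 in WT. Cd177 encodes a surface protein that in humans carries proteinase 3 on neutrophils (chromosome 7, 24743983 to 24760334). It had 2410 and 2638 in GPR43 KO and 3118 and 2359 in GPR41 KO, against 1999 and 2167 in WT, and was the 1 gene of the 29 with all 4 KO arrays above both WT arrays, which 13.1% of all genes showed. Neither passed the test: Pglyrp1 stood at 0.26 ± 0.12 in GPR43 KO (limma adjusted p = 0.280) and 0.13 ± 0.12 in GPR41 KO (limma adjusted p = 0.625). Cd177 stood at 0.27 ± 0.15 in GPR43 KO (limma adjusted p = 0.362) and 0.38 ± 0.15 in GPR41 KO (limma adjusted p = 0.216). When the library labelled GPR43 KO replicate 1 was left out, the values in GPR43 KO were 0.27 for Pglyrp1 and 0.34 for Cd177 (limma adjusted p = 0.509 and 0.469). The 9 colon epithelium markers summed to 249734 to 286784 in GPR43 KO and 244234 to 249123 in GPR41 KO, against 182431 to 210936 in WT; their part in the signals of Pglyrp1 and Cd177 was not tested.

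**Figure D2:**
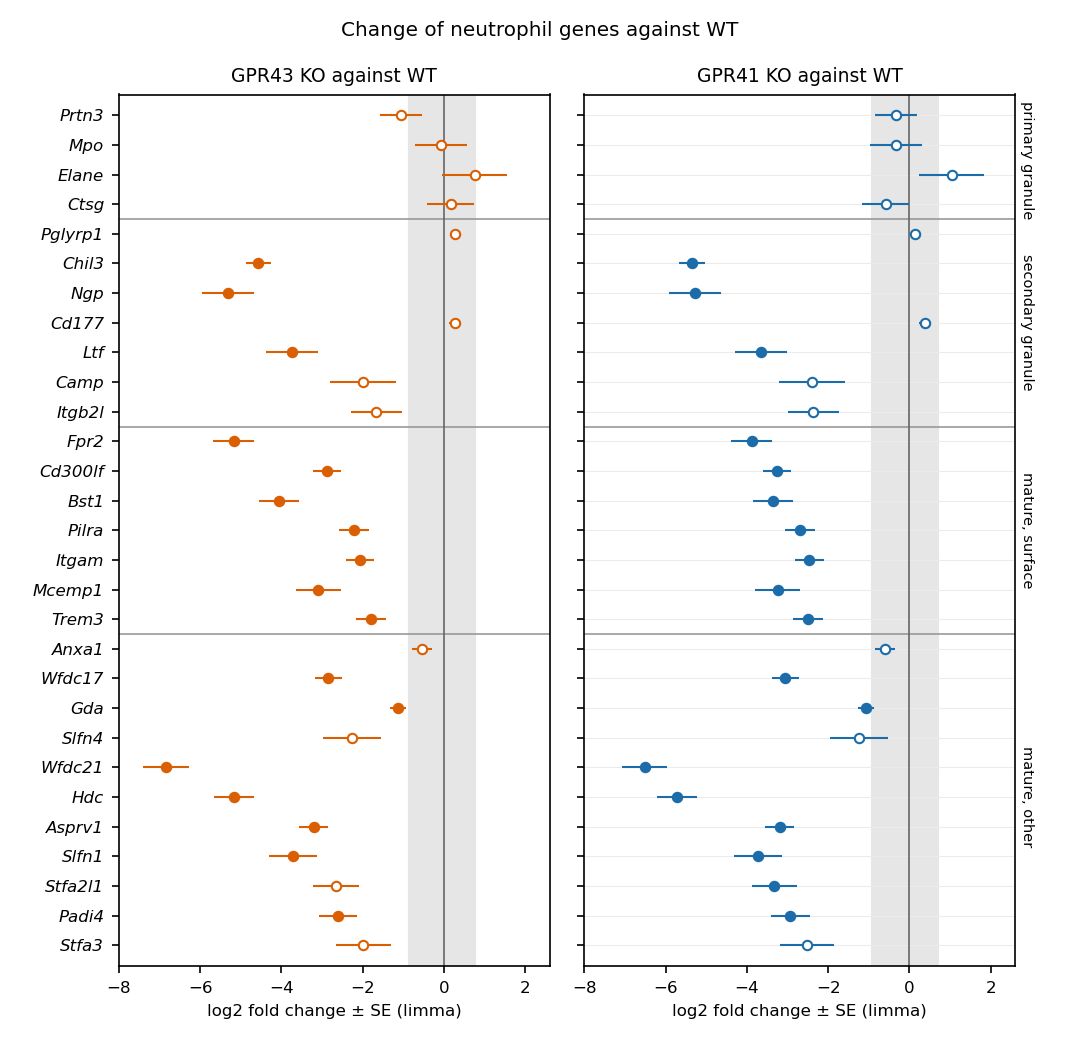
Log2 fold change ± SE (limma) of each of the 29 genes in GPR43 KO (left) and GPR41 KO (right) against WT, with the same WT arrays in both panels. Filled points had an adjusted p under 0.05 in the test with weak genes kept, which also gave the SE drawn for every gene. The grey band spans the 5th to 95th percentile of all genes. All 7 surface genes lie left of the band in both panels, Pglyrp1 and Cd177 within it.

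All 7 measured surface genes fell in both KO groups with weak genes kept, where 1.29% of all genes fell in GPR43 KO and 1.65% in GPR41 KO, with a median log2 fold change of -2.89 in GPR43 KO and -3.24 in GPR41 KO. In the standard test, where 2.41% and 3.11% of all tested genes fell, 4 surface genes were included and 4 fell in each comparison. Without WT replicate 2 the standard test included 1 of them, which fell in both comparisons, and without GPR43 KO replicate 2 it included 5, of which 3 fell in GPR43 KO. None of the 7 overlapped between WT and either KO group, a pattern that 20.8% of all genes showed in the lower direction in GPR43 KO and 23.9% in GPR41 KO.

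Fpr2 encodes a receptor for formylated peptides, which bacteria and damaged mitochondria release (chromosome 17, 17887824 to 17893952, next to Fpr1, which was not measured). Fpr2 had 12.1 and 49.7 in GPR43 KO and 69.6 and 122 in GPR41 KO, against 1070 and 2412 in WT. Its log2 fold change was -5.17 ± 0.49 in GPR43 KO (limma adjusted p = 0.00139), -4.59 with replicate 2 as the only GPR43 KO array (limma adjusted p = 0.0033), and -3.88 ± 0.49 in GPR41 KO (limma adjusted p = 0.00308).

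Itgam encodes CD11b, the alpha chain of the integrin Mac-1, which is also carried by monocytes and macrophages (chromosome 7, 128062640 to 128118491). Itgam had 110 and 87.7 in GPR43 KO and 50.5 and 96.4 in GPR41 KO, against 411 and 538 in WT. Its log2 fold change was -2.07 ± 0.33 in GPR43 KO (limma adjusted p = 0.0114) and -2.46 ± 0.33 in GPR41 KO (limma adjusted p = 0.00405). With the library labelled GPR43 KO replicate 1 left out it was -2.21 in GPR43 KO (adjusted p = 0.0381), and without GPR43 KO replicate 2 the call was lost (adjusted p = 0.0728).

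Cd300lf and Pilra are inhibitory receptors of myeloid cells. Cd300lf had 206 and 111 in GPR43 KO and 124 and 104 in GPR41 KO, against 946 and 1618 in WT, with log2 fold changes of -2.89 ± 0.33 and -3.26 ± 0.33 (limma adjusted p = 0.00305 and 0.00128). Pilra had 132 and 72.4 in GPR43 KO and 65.1 and 66.4 in GPR41 KO, against 411 and 670 in WT, with log2 fold changes of -2.22 ± 0.35 and -2.70 ± 0.35 (limma adjusted p = 0.0107 and 0.00345). For both genes the library labelled GPR43 KO replicate 1 was the highest of the 4 KO arrays; without it the values in GPR43 KO were -3.29 for Cd300lf (adjusted p = 0.0033) and -2.59 for Pilra (adjusted p = 0.0150). The Pilra call in GPR43 KO was lost without GPR43 KO replicate 2 (adjusted p = 0.0635).

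Bst1, Mcemp1 and Trem3 were below the limit of the standard test. Bst1 encodes CD157, an enzyme on the cell surface that uses NAD, and had 14.1 and 52.1 in GPR43 KO and 65.5 and 52.5 in GPR41 KO, against 518 and 1137 in WT. The log2 fold change of Bst1 was -4.05 ± 0.49 in GPR43 KO (limma adjusted p = 0.00587) and -3.36 ± 0.49 in GPR41 KO (limma adjusted p = 0.00963). A second Bst1 probe set gave -3.38 and -2.88. The Bst1 call in GPR43 KO held with the library labelled replicate 1 left out, at -3.49 (adjusted p = 0.0356), while that in GPR41 KO was lost without either GPR41 KO array or WT replicate 2 (adjusted p = 0.0835 to 0.0892). Mcemp1, named for its membrane protein in mast cells, was at -3.09 ± 0.56 and -3.24 ± 0.56 (limma adjusted p = 0.0305 and 0.0198). Trem3, a receptor that signals through DAP12, was at -1.80 ± 0.37 and -2.50 ± 0.37 (limma adjusted p = 0.0477 and 0.00958). In GPR43 KO the Trem3 call was lost on leaving out any array except WT replicate 1 (adjusted p = 0.0882 to 0.295), and the Mcemp1 call without WT replicate 2, GPR43 KO replicate 2 or either GPR41 KO array (adjusted p = 0.0691 to 0.195). Both were also lost there with a pseudocount of 1 or with only the 4 arrays compared (adjusted p = 0.0558 to 0.0697), and Trem3 with quantile normalization or a replicate block (adjusted p = 0.0540 and 0.0624). In GPR41 KO both calls were lost without WT replicate 2 or either GPR41 KO array (adjusted p = 0.0661 to 0.152). With the library labelled GPR43 KO replicate 1 left out, Mcemp1 stood at -3.80 in GPR43 KO (adjusted p = 0.0393) and Trem3 at -1.73 (adjusted p = 0.210).

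Among the 11 measured cytosolic, nuclear and secreted genes, 7 fell in GPR43 KO and 8 in GPR41 KO with weak genes kept. Of all genes, 1.29% and 1.65% fell in that test. In the standard test 3 of the 5 included fell in each, where 2.41% and 3.11% of all tested genes fell. The median log2 fold change of the 11 genes was -2.66 in GPR43 KO and -3.06 in GPR41 KO, with values from -6.83 to -0.55.

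Wfdc21 encodes a small secreted protein of the whey acidic protein family (chromosome 11, 83746940 to 83752646). Wfdc21 had 8.78 and 5.75 in GPR43 KO and 1.36 and 33 in GPR41 KO, against 1799 and 4537 in WT. The KO signals were at the level of background, so that the fold changes of -6.83 ± 0.56 in GPR43 KO and -6.52 ± 0.56 in GPR41 KO on the log2 scale are set by the pseudocount (limma adjusted p = 0.00146 and 0.00104). Wfdc17, of the same family and nearby at 83704056 to 83706269, kept a clear signal in KO colon, with 1180 and 623 in GPR43 KO and 953 and 570 in GPR41 KO, against 5089 and 7747 in WT. Its log2 fold change was -2.85 ± 0.33 in GPR43 KO (limma adjusted p = 0.00319) and -3.06 ± 0.33 in GPR41 KO (limma adjusted p = 0.00181). When the library labelled GPR43 KO replicate 1 was left out, Wfdc21 stood at -6.92 (adjusted p = 0.0108) and Wfdc17 at -3.30 (adjusted p = 0.0024).

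Hdc encodes histidine decarboxylase, which makes histamine in mast cells and in some myeloid cells (chromosome 2, 126593659 to 126624025). Hdc had 17.4 and 13.8 in GPR43 KO and 4.5 and 4.93 in GPR41 KO, against 716 and 1962 in WT. The log2 fold change was -5.17 ± 0.49 in GPR43 KO (limma adjusted p = 0.00206) and -5.73 ± 0.49 in GPR41 KO (limma adjusted p = 0.00104), and a second Hdc probe set gave -5.64 and -5.70. The KO signals of Hdc were below the pseudocount, which therefore sets the size of these fold changes as it does for Wfdc21. Leaving out the library labelled GPR43 KO replicate 1 gave -5.58 (adjusted p = 0.0080). The 9 measured mast cell markers summed to 1003 to 1237 in GPR43 KO and 771 to 1053 in GPR41 KO. In WT the sum was 899 to 1133. Kit made up most of each sum. It had 802 and 730 in GPR43 KO and 501 and 672 in GPR41 KO, against 707 and 553 in WT. Log2 fold changes of the 9 ran from -1.54 to 0.33 in GPR43 KO and from -1.12 to 0.51 in GPR41 KO. With weak genes kept, 0 of 9 passed the test in either comparison, and 1 and 0 had an unadjusted p under 0.05 (limma). Only 2 of the 9 were above the limit of the standard test, and the part of mast cells in the Hdc result was not tested.

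Padi4 encodes the enzyme that citrullinates histones in neutrophil extracellular traps. It had 25.8 and 18.7 in GPR43 KO and 5.52 and 26.1 in GPR41 KO, against 173 and 296 in WT, with log2 fold changes of -2.61 ± 0.47 and -2.93 ± 0.47 (limma adjusted p = 0.0302 and 0.0149). The Padi4 call in GPR43 KO was lost without WT replicate 2 or either GPR43 KO array (adjusted p = 0.132 to 0.214; 0.132 without the library labelled replicate 1), and in GPR41 KO without WT replicate 2 or GPR41 KO replicate 1 (adjusted p = 0.110 and 0.123). With a pseudocount of 1 it was also lost in GPR43 KO (adjusted p = 0.0830).

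The schlafens Slfn1 and Slfn4 lie in the same 636 kb of chromosome 11 as Wfdc17 and Wfdc21. Slfn1, which is known for holding T cells in quiescence in mice, had 11.1 and 37.0 in GPR43 KO and 45.7 and 6.94 in GPR41 KO, against 338 and 766 in WT. It stood at -3.72 ± 0.59 and -3.73 ± 0.59 (limma adjusted p = 0.0183 and 0.0147), but a second, weak Slfn1 probe set gave 0.23 and 0.53, and the call was lost in GPR43 KO without WT replicate 2 or either GPR43 KO array (adjusted p = 0.0873 to 0.132; -3.26 and 0.132 without the library labelled replicate 1). In GPR41 KO it was lost without WT replicate 2 or GPR41 KO replicate 2 (adjusted p = 0.108 and 0.104), and in both comparisons with the mean over probe sets (adjusted p = 0.105 and 0.129). T cell markers summed to 536 to 601 in GPR43 KO and 507 to 639 in GPR41 KO, against 441 to 442 in WT. Slfn4, which interferon induces in mouse myeloid cells, had 767 and 651 in GPR43 KO and 580 and 3652 in GPR41 KO, against 2190 and 5527 in WT. GPR41 KO replicate 2 lay among the WT arrays, and Slfn4 did not pass the test at -2.27 ± 0.72 in GPR43 KO (limma adjusted p = 0.127) and -1.24 ± 0.72 in GPR41 KO (limma adjusted p = 0.393). These Slfn4 results rested on single arrays. In GPR41 KO the value was 0.069 with replicate 1 left out and -2.55 with replicate 2 left out, where it passed (adjusted p = 0.0285). In GPR43 KO it passed without WT replicate 1 or either GPR41 KO array, or with only the 4 arrays compared (adjusted p = 0.0177 to 0.0476), and was at -2.39 without the library labelled replicate 1 (adjusted p = 0.271). On a probe set that Slfn4 shares with Slfn3, GPR41 KO replicate 2 was also apart, at 60.9 and 66.1 in GPR43 KO and 88.4 and 398 in GPR41 KO, against 280 and 610 in WT.

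The stefins A inhibit cysteine proteases such as cathepsins, and Stfa2l1 and Stfa3 together span 299 kb of chromosome 16. Stfa2l1 had 68.2 and 21.9 in GPR43 KO and 39.3 and 5.75 in GPR41 KO, against 284 and 435 in WT. It was the 1 gene of the 29 with different calls in the 2 comparisons, at -2.66 ± 0.56 in GPR43 KO (limma adjusted p = 0.0537) and -3.33 ± 0.56 in GPR41 KO (limma adjusted p = 0.0181); the difference between the KO groups did not pass. Its call in GPR41 KO was lost without WT replicate 2 or GPR41 KO replicate 2 (adjusted p = 0.130 and 0.123). Stfa3 had 63.0 and 0.904 in GPR43 KO and 2.80 and 16.9 in GPR41 KO, against 107 and 175 in WT, and did not pass at -1.99 ± 0.67 and -2.52 ± 0.67 (limma adjusted p = 0.207 and 0.111). With the library labelled GPR43 KO replicate 1 left out, Stfa2l1 was at -3.21 and Stfa3 at -3.04 in GPR43 KO (adjusted p = 0.103 and 0.0852), and neither passed. Stfa2l1 passed in GPR43 KO with a pseudocount of 72 or with only the 4 arrays compared (adjusted p = 0.0234 and 0.0494), and Stfa3 in GPR41 KO with only the 4 arrays compared or without either GPR43 KO array (adjusted p = 0.0464 to 0.0484). The probe set shared by Stfa1 and Cstdc5 gave 10.4 and 18.1 in GPR43 KO and 3.12 and 3.80 in GPR41 KO, against 143 and 371 in WT.

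Asprv1 encodes a retroviral-like aspartic protease best known from the epidermis (chromosome 6, 86628174 to 86629710). Asprv1 had 97.4 and 60.1 in GPR43 KO and 72 and 83.3 in GPR41 KO, against 636 and 1153 in WT. It stood at -3.20 ± 0.34 on the log2 scale in GPR43 KO and in GPR41 KO (limma adjusted p = 0.00198 and 0.00166), and at -3.49 in GPR43 KO without the library labelled replicate 1 (adjusted p = 0.0046). The 8 measured markers of squamous epithelium summed to 604 to 919 in GPR43 KO and 669 to 753 in GPR41 KO, against 1780 to 2205 in WT, and without Dmkn and Sbsn to 446 to 469 in GPR43 KO and 385 to 399 in GPR41 KO, against 493 to 562 in WT. In each comparison 5 of the 8 had a negative log2 fold change and 3 a positive one. Among the positive ones, the keratin gene Krt14 was at 0.72 in GPR43 KO and 0.80 in GPR41 KO. Neither passed with weak genes kept (limma adjusted p = 0.398 and 0.353). Among the negative ones, the keratin gene Krt13 had 74.1 and 44.3 in GPR43 KO and 54.6 and 26.7 in GPR41 KO. In WT it had 186 and 150. Krt13 was at -1.29 in GPR43 KO and -1.70 in GPR41 KO, and neither passed (limma adjusted p = 0.195 and 0.0856). Both keratin genes were below the limit of the standard test. Of the 2 in the standard test, Dmkn fell in GPR43 KO and both Dmkn and Sbsn fell in GPR41 KO, calls that in GPR41 KO were lost without WT replicate 2 or either GPR41 KO array (adjusted p = 0.0600 to 0.164), for Sbsn also without WT replicate 1, with quantile normalization or with weak genes kept (adjusted p = 0.0549 to 0.0756). Sbsn passed in GPR43 KO when the library labelled replicate 1 was left out (adjusted p = 0.00953). Their part in the Asprv1 result was not tested.

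Gda, guanine deaminase, and Anxa1, annexin A1, a protein that limits neutrophil entry into tissue, had high signals in every array. Gda had 2992 and 1960 in GPR43 KO and 2714 and 2331 in GPR41 KO, against 4793 and 5872 in WT, with log2 fold changes of -1.13 ± 0.20 in GPR43 KO (limma adjusted p = 0.0193) and -1.07 ± 0.20 in GPR41 KO (limma adjusted p = 0.0188). The Gda calls were lost without WT replicate 2 (adjusted p = 0.0681 in GPR43 KO and 0.0752 in GPR41 KO), without GPR43 KO replicate 2 (0.104 in GPR43 KO) and without either GPR41 KO array (0.0730 and 0.118 in GPR41 KO), and in GPR41 KO with the mean over probe sets (0.0618). Gda in GPR43 KO was at -1.43 with the library labelled replicate 1 left out (adjusted p = 0.0087). Anxa1 had 8833 and 10945 in GPR43 KO and 10780 and 8264 in GPR41 KO, against 11128 and 18518 in WT. Its log2 fold changes of -0.55 ± 0.24 and -0.60 ± 0.24 did not pass the test (limma adjusted p = 0.249 and 0.208), and did so only without WT replicate 1 (-0.91 and -0.97, adjusted p = 0.0179 and 0.0118); leaving out the library labelled GPR43 KO replicate 1 gave -0.39 in GPR43 KO (adjusted p = 0.589).

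The 2 WT arrays differed from each other in these genes. In 27 of the 29 genes (93.1%) WT replicate 2 was above WT replicate 1, against 54.6% of all genes, and Mpo and Elane were the exceptions. Among genes with all KO arrays below WT, the ratio of WT replicate 2 to WT replicate 1 was 2.09 to 11.2 for the 5 secondary granule genes, with a median of 4.34, and 1.23 to 2.74 for the 17 mature-cell genes, with a median of 1.71. Over the 1664 tested genes with all KO arrays below WT the median ratio was 1.10. Those are all above the limit on weak genes, whereas Camp, Ltf, Itgb2l and several of the mature-cell genes were below it. The ratios are of signals without the pseudocount, and Camp had only 35.6 in WT replicate 1. Camp had the highest ratio, 11.2, then Ngp with 5.43, Ltf with 4.34, Itgb2l with 2.93 and Chil3 with 2.09. These ratios describe 1 pair of arrays and have no test.

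**Figure D3:**
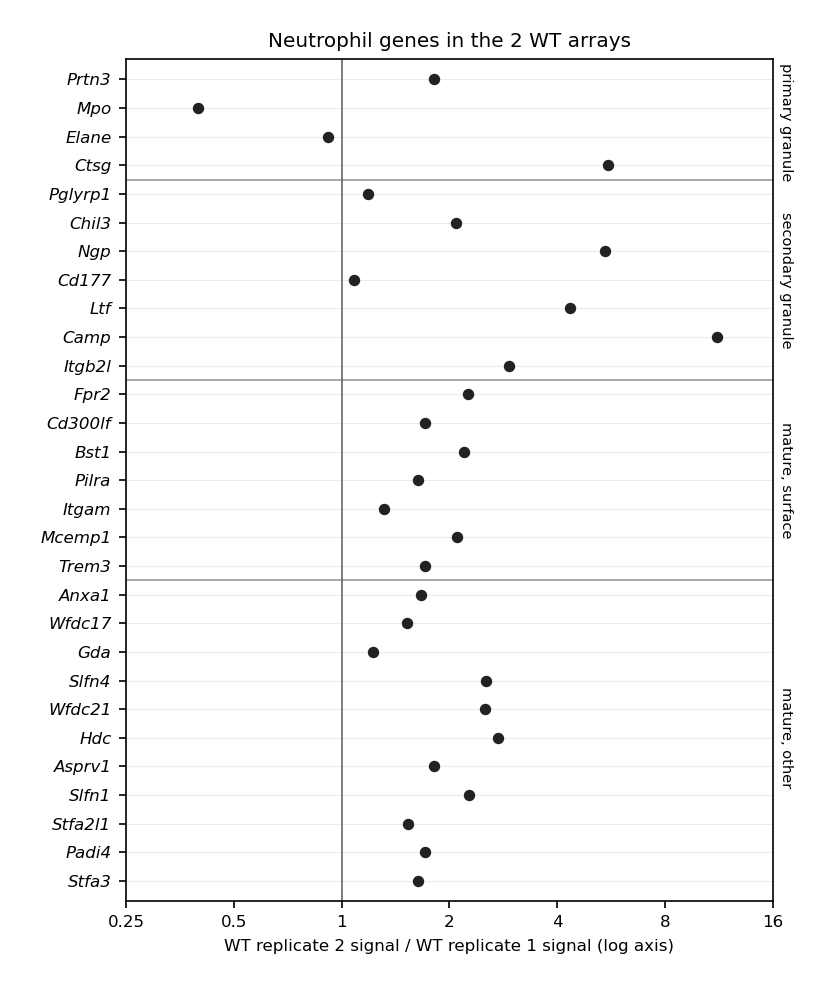
Signal in WT replicate 2 divided by that in WT replicate 1 (log axis) for the 29 genes, by role. The 5 lower secondary granule genes reach from 2.09 (Chil3) to 11.2 (Camp), while all surface genes lie between 1.31 and 2.25 and Mpo lies below 1, at 0.398.

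The KO groups were compared with each other directly. With limma, 0 of 13 genes passed in GPR43 KO against GPR41 KO, and 0 of 29 with weak genes kept, where 0% of all genes passed in either direction. At an unadjusted p under 0.05 the count was 2 of 13 (and 2 of 29), where 3.28% of tested genes were higher and 2.18% lower at that level. The 2 genes were Fpr2, at -1.29 ± 0.49 (limma adjusted p = 0.870), and Chil3, at 0.78 ± 0.31 (limma adjusted p = 0.870). Leaving out the library labelled GPR43 KO replicate 1 gave -0.71 for Fpr2 and 0.84 for Chil3. The arrays of the KO groups did not overlap in 8 of the 29 genes, 6 higher and 2 lower in GPR43 KO, against 21.8% and 14.1% of all genes. A p that misses the threshold does not show that the KO groups were alike.

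Over the 29 genes the median log2 difference of GPR43 KO from GPR41 KO was 0.15, against 0.04 for all genes. The library labelled GPR43 KO replicate 1 was the highest of the 4 KO arrays in 13 of the 29 genes (44.8%), against 31.4% of all genes, and its median log2 difference from the GPR41 KO mean was 0.44. GPR43 KO replicate 2 was the highest in 4 of the 29 genes (13.8%), against 25.5% of all genes, with a median difference of 0.04. Over all genes these medians were 0.05 and 0.03. GPR41 KO replicate 1 was the highest in 5 of the 29 (17.2%), against 21% of all genes, and GPR41 KO replicate 2 in 7 (24.1%), against 22.1%. The larger median thus came from the library whose Ffar2 signal went against its label.

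**Figure D4:**
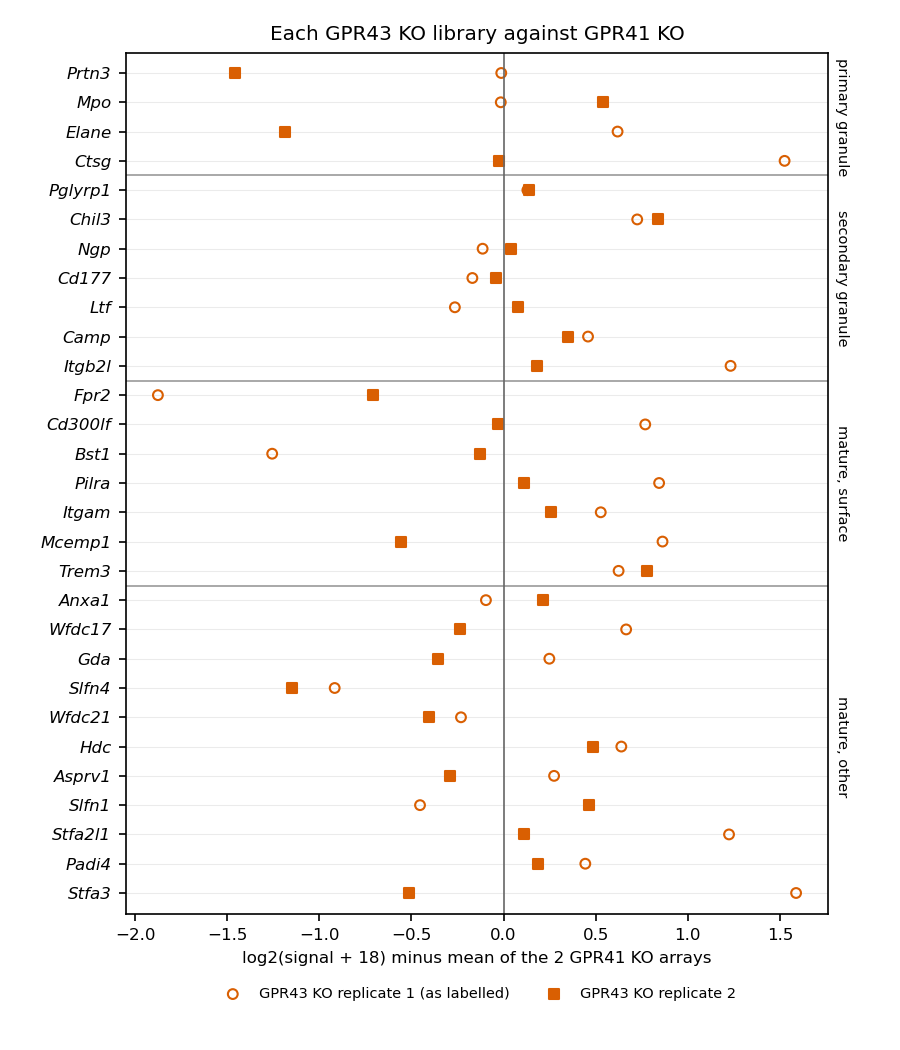
Difference of each GPR43 KO library from the mean of both GPR41 KO arrays, on the scale of log2(signal + 18), for the 29 genes. The library labelled GPR43 KO replicate 1 (open circles) has a median of 0.44 with 18 of 29 genes above 0, and GPR43 KO replicate 2 (squares) a median of 0.04 with 15 of 29 above 0.

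Other neutrophil genes, taken as lists of effector genes and of surface receptors, were mostly lower too. Of 11 tested effector genes, 9 fell in GPR43 KO (8 without the library labelled GPR43 KO replicate 1, 6 of 10 without WT replicate 2) and 10 in GPR41 KO. Over all tested genes 2.41% fell in GPR43 KO and 3.11% in GPR41 KO. With weak genes kept, 9 of 12 measured effector genes fell in each comparison, where 1.29% and 1.65% of all genes fell. S100a8, a subunit of calprotectin, had 1202 and 414 in GPR43 KO and 356 and 254 in GPR41 KO, against 32866 and 56389 in WT. Lcn2, a protein that binds bacterial siderophores, had 279.5 and 240.8 in GPR43 KO and 175 and 143 in GPR41 KO, against 15634 and 34828 in WT. Mmp8, the collagenase of secondary granules, was at -5.39 ± 0.52 in GPR43 KO (limma adjusted p = 0.00150) and -5.69 ± 0.52 in GPR41 KO (limma adjusted p = 0.000897) on the log2 scale. Its signal was 80.9 and 22.8 in GPR43 KO and 28.3 and 39.8 in GPR41 KO, against 1593 and 4405 in WT. Mmp8 thus passed the limit on weak genes only through its WT level, and the pseudocount bears on the size of its fold changes. Of 9 tested surface receptors outside the list of 33, 9 fell in each comparison, and in GPR43 KO 8 did so without the library labelled replicate 1 and 6 without replicate 2. Receptors near background in the KO arrays passed the limit only through their WT level. Clec4e, for example, had 78.1 and 16.2 in GPR43 KO and 27.3 and 23.3 in GPR41 KO, against 1263 and 2121 in WT. With weak genes kept, 10 of 11 measured receptors fell in each comparison. The 9 tested receptors included Il1r2, the decoy receptor for interleukin-1, at -4.89 ± 0.47 and -5.58 ± 0.47 (limma adjusted p = 0.00148 and 0.000700).

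Of the myeloid transcription factors and precursor genes, 2 of 9 tested fell in GPR43 KO and 3 of 9 in GPR41 KO. Of all tested genes, 2.41% and 3.11% fell. Over the 11 measured factors and precursor genes the median log2 fold change was 0.01 and 0.00, with 6 positive in each comparison. Without WT replicate 1, 3 of 10 fell and 2 of 10 rose in each comparison, and without GPR43 KO replicate 2, 1 of 9 fell in GPR43 KO. Cebpb and Cebpd, C/EBP factors of mature myeloid cells, fell in both comparisons, Cebpb with log2 fold changes of -2.32 ± 0.21 in GPR43 KO (limma adjusted p = 0.00137) and -2.47 ± 0.21 in GPR41 KO (limma adjusted p = 0.000746). Cebpd was at -1.52 ± 0.22 and -1.90 ± 0.22 (limma adjusted p = 0.00739 and 0.00220), and its call in GPR43 KO was lost without GPR43 KO replicate 2 (adjusted p = 0.0547). Spi1, which encodes PU.1, was at -1.11 ± 0.32 in GPR43 KO (limma adjusted p = 0.0974; 0.0310 without WT replicate 1) and at -1.49 ± 0.32 in GPR41 KO (limma adjusted p = 0.0337), a call lost without WT replicate 2 (adjusted p = 0.165) or GPR41 KO replicate 1 (adjusted p = 0.196), or with weak genes kept (adjusted p = 0.0573). Myb, a factor of progenitor cells, was at 0.59 ± 0.18 in GPR43 KO and 0.65 ± 0.18 in GPR41 KO (limma adjusted p = 0.118 and 0.0811), and passed the test without WT replicate 1 (adjusted p = 0.0186 and 0.0115). The colon epithelium and other cells express some of these factors too.

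Macrophage and monocyte markers, which share Itgam and Chil3 expression with neutrophils, summed to 10895 to 12344 in GPR43 KO and 8488 to 10584 in GPR41 KO, against 15871 to 26155 in WT. Cd14, a co-receptor for lipopolysaccharide, made up much of that difference, with 2320 and 1904 in GPR43 KO and 1762 and 1746 in GPR41 KO, against 6174 and 12074 in WT. Without Cd14 the sums were 8992 to 10025 in GPR43 KO and 6725 to 8838 in GPR41 KO, against 9697 to 14081 in WT, so that GPR43 KO and WT overlapped. Of 10 tested, 2 fell in each comparison, Cd14 and Cd68, where 2.41% and 3.11% of all tested genes fell. Medians over the list were -0.30 and -0.59, with 8 of 10 negative in GPR43 KO and 9 in GPR41 KO. Both arrays of the KO group lay below both WT arrays in 5 and 6 of the 10, against 20.8% and 23.9% of all genes. With weak genes kept, 2 and 6 had an unadjusted p under 0.05 (limma), where 15% and 14.6% of all genes did. Without WT replicate 1, 6 of 10 fell in GPR41 KO, and without GPR41 KO replicate 1 it was 1. The Cd68 call in GPR43 KO was lost without either GPR43 KO array (adjusted p = 0.0616 and 0.123) and in GPR41 KO without GPR41 KO replicate 1 (adjusted p = 0.0502). Their part in the lower signals of Itgam, Chil3, Cd300lf and Pilra was not tested. Eosinophil markers summed to 150 to 196 in GPR43 KO and 170 to 174 in GPR41 KO, against 87.9 to 145 in WT. The sums were thus not higher in WT, but 0 of the 5 markers were above the limit of the standard test. Sums of such weak signals say little about eosinophils. All 9 colon epithelium markers had a positive log2 fold change in both comparisons, with medians of 0.36 in GPR43 KO and 0.38 in GPR41 KO. Their part in the lower signals of the neutrophil genes was not tested. With weak genes kept, 5 of these 9 in GPR43 KO and 4 in GPR41 KO had an unadjusted p under 0.05 (limma). Of all genes, 15% and 14.6% did. Of 9 tested colon epithelium markers, 0 passed in GPR43 KO (limma; 6 at an unadjusted p under 0.05) and 1 rose in GPR41 KO, namely Vil1 at 0.58 ± 0.13, a call lost in 8 of the alternatives (adjusted p = 0.0640 to 0.242). Without WT replicate 1, 2 of 9 rose in GPR43 KO and 3 of 9 in GPR41 KO, and without WT replicate 2, 1 of 9 rose in GPR43 KO and 0 in GPR41 KO.

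**Figure D5:**
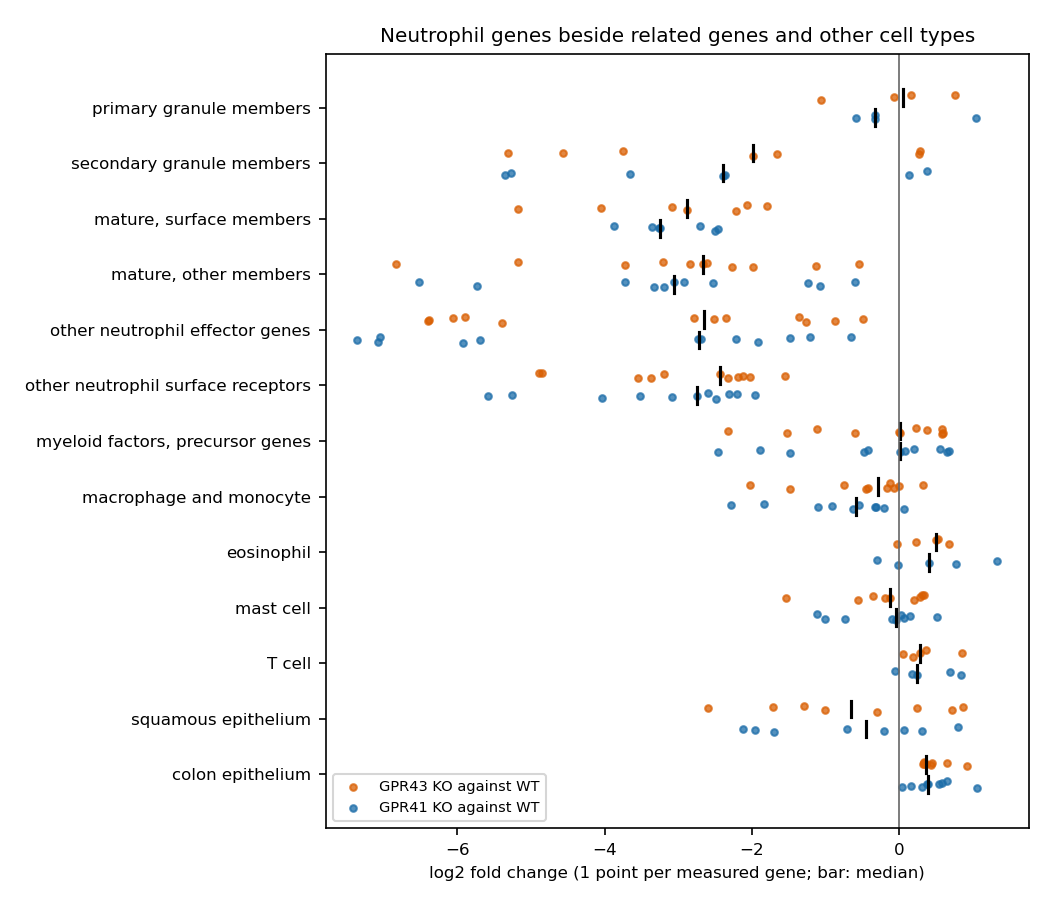
Log2 fold change of each measured gene (points) and the median (bar) in GPR43 KO and GPR41 KO against WT, for the neutrophil genes by role, the related lists and markers of other cell types. Medians of the secondary granule and mature-cell genes lie between -1.99 and -3.24, those of the primary granule genes at 0.04 and -0.33, and those of the macrophage and monocyte markers at -0.30 and -0.59.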

How the data were processed

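Colon RNA of 6 mouse samples was labelled with biotin and hybridised to 1 Affymetrix array each, per the labels. The authors deposited a MAS5 intensity for every probe set on a linear scale, per the submitters' processing notes and the values. These were already scaled: with the lowest and highest 2% left out, each array's mean was 500.0. Of 45101 probe sets, 34958 had 1 gene symbol in the annotation table, 932 several and 9211 none. Signals were taken as log2(signal + 18), 18 being near the 20th percentile of all deposited values. Only genes whose mean log2 signal exceeded the 40th percentile entered the standard test (10916 of 18193), since ratios of weak MAS5 signals are unstable; keeping weak genes was an alternative.

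All 6 arrays entered 1 limma 3.58.1 model (lmFit, eBayes with trend, R 4.3.3) with a mean for each group and 3 residual degrees of freedom. Tests were two-sided, with Benjamini-Hochberg adjustment over all genes tested and a threshold of 0.05. The procedure was tested on simulated data. Exact permutation of 2 against 2 arrays, whose smallest p is 0.333, was not used. Groups came from the sample titles. The labels do not say that replicate numbers pair arrays. Same-numbered deviations correlated at -0.271 (GPR43 KO and WT), 0.107 (GPR41 KO and WT) and -0.054 (GPR43 KO and GPR41 KO). With 2 arrays a group, the deviations within a group are equal and opposite, so these values cannot decide whether arrays were paired. The members, lists and named genes were chosen with earlier results of these data known: all 33 listed genes could be named, and up to 4 genes of smallest p in GPR41 KO against WT from each related list, besides Ffar2. Markers of other cell types were named where 5 or fewer passed. Alternatives covered the pseudocount, quantile normalization, the mean over probe sets, the limit on weak genes, the arrays in the fit, a replicate block and leaving out each array.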

Additional observations from a re-analysis of the deposited data

How the results depend on the processing

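Counts of listed genes called lower depended on which weak genes were tested and on single arrays. Against 9 of 13 in either KO group, the count was 14 in GPR43 KO and 14 in GPR41 KO when only the 4 arrays compared entered the fit, 17 and 18 with weak genes kept, and 3 and 3 with the 60th percentile as limit, which left 7 of them. Leaving out 1 array gave 4 to 13 in GPR43 KO and 4 to 12 in GPR41 KO, the lowest without WT replicate 2. With weak genes kept, leaving out 1 array gave 7 to 18 in GPR43 KO and 8 to 20 in GPR41 KO. A replicate block gave 9 and 9, or 16 and 18 with weak genes kept, and with the numbers crossed in GPR43 KO 10 and 9, an alternative chosen after seeing the data, as were all combined with keeping weak genes. GPR43 KO against GPR41 KO gave 0 in every alternative run.

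Of 35 calls of listed genes (the standard test where the gene was in it, weak genes kept otherwise), 19 held in every alternative run for them: those of Asprv1, Cd300lf, Chil3, Fpr2, Ngp, Wfdc17, Hdc and Wfdc21 in both comparisons, Bst1 in GPR43 KO, and Itgam and Pilra in GPR41 KO. A gene below the limit in an alternative was not tested there, and so could not lose its call. Without WT replicate 2 the standard test included 1 of the surface genes, against 4 with all arrays. The 60th percentile limit left 7 of the 13 listed genes. Directions turned only for genes that did not pass. In GPR43 KO, Mpo was at 0.35 without WT replicate 1 and 0.20 without the library labelled GPR43 KO replicate 1, Elane at -0.15 without that library, Ctsg at -0.37 and -0.61, and Itgb2l at 0.37 and 1.84 without WT replicate 1 and 2, where another Itgb2l probe set became the highest. In GPR41 KO, Mpo was at 0.087 with WT replicate 1 left out and at 0.60 with GPR41 KO replicate 1 left out, Elane at -0.12 without GPR41 KO replicate 2, Prtn3 at 0.042 and Itgb2l at 1.35 without WT replicate 2, and Slfn4 between -2.55 and 0.069 over the arrays left out, the highest without GPR41 KO replicate 1. For all but Itgb2l the cause was not tested. MAS5 signals near background limit the weak genes, above all the primary granule genes.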
